A study of Mus musculus with 18 samples.

Results

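The ROCK inhibitor Y27632 (Y27) was compared with no inhibitor in KDEL cells on a stiff substrate. The comparison rested on 6 of the 18 mRNA libraries of the series, 3 from Y27-treated cells (libraries 12, 24 and 36) and 3 from untreated cells (libraries 8, 20 and 32), named by the laboratory's serial number. All 6 came from NIH 3T3 mouse fibroblasts of a Tet-ON line carrying SS-GFP-KDEL, a green fluorescent protein held in the endoplasmic reticulum that serves as the control for a LINC-disrupting construct. The cells were a retrovirally transduced population enriched by fluorescence sorting, were induced with 1 μg/ml doxycycline and grew for 48 hr on fibronectin-coated polyacrylamide of 308 kPa. The treated cells also received 25 μM Y27 for 48 hr, and the labels name no solvent control for the untreated cells. The study's methods give 3 biological replicates per condition. The labels do not say whether they were separate cultures, so p-values measure only the spread between these libraries. Of the 22019 genes in the deposited table, 14602 had a signal above the lowest deposited value of 1 in at least 3 of the 6 libraries and were tested.

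Y27 blocks the kinases ROCK1 and ROCK2. Active RhoA switches these kinases on. They raise the phosphorylation of the myosin regulatory light chain, directly and by restraining myosin phosphatase, and they activate LIM kinases, which in turn inactivate the actin-severing protein cofilin. The resulting contractile stress fibers in fibroblasts release the coactivators MRTF and YAP to act on genes with SRF and TEAD sites. The inhibitor acts on kinase activity, so transcript levels of the kinases themselves do not report whether they were inhibited.

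The serum response factor SRF binds the CArG box. A match to it, on either strand, lay in the 250 bases before the start site of 11 of the 28 SRF and MRTF targets for which RefSeq sequence was used here, or 39.3%, against 1.62% of the promoters of all 27025 genes in that set. This list was assembled from known SRF targets, and many of these are known through the motif itself. The promoters of 3 genes whose values are given below show the motif in capitals (RefSeq, GRCm38.p6, written 5′ to 3′ on the gene's strand). Cnn2 encodes the actin-binding protein calponin 2 (chr10:79988350-79988599, plus strand, match from position -56 before the start site). Vcl encodes the focal adhesion protein vinculin (chr14:20929148-20929397, plus strand, from -227). Zfp36 is an immediate-early gene whose protein promotes the decay of mRNAs (chr7:28379229-28379478, minus strand, from -58).
Cnn2: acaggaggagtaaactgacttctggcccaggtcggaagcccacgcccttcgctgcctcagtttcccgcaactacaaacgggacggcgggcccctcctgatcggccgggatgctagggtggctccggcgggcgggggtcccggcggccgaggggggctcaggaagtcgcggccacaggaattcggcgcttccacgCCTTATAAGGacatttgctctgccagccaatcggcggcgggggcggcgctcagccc
Vcl: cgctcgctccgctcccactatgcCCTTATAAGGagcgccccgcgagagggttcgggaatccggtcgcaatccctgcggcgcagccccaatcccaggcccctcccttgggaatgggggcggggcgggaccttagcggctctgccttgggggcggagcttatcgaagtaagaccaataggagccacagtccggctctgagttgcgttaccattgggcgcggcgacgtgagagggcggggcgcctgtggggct
Zfp36: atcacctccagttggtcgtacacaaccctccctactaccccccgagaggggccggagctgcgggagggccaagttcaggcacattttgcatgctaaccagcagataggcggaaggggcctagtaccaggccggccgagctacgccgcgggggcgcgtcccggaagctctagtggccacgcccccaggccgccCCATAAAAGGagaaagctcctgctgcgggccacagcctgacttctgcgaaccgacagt

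The 6 libraries held an estimated 14260000 to 19460000 read pairs, and 1 read pair was worth 1.76 to 2.16 signal units, so signals of a few units rest on a few read pairs or none. Library 8 stood apart from the other 5. On the first principal component of the better expressed genes, which held 60.9% of the variance, it lay at -44.0 against 2.43 to 15. Mean log2(signal + 1) of 42 mitosis genes was 8.90 in library 8, 11.28 and 11.86 in the other untreated libraries and 11.37 to 11.63 in the Y27 libraries. List medians and gene differences that library 8 moved most are therefore also given without it. The serial numbers form 3 runs, each with 1 library of every condition except blebbistatin, which has a library in 2 of them, so libraries 12 and 8, 24 and 20, and 36 and 32 share a run. What a run stands for is not stated, but libraries of the same run deviated together, and differences within runs are given beside the pooled ones. Sun1, the source of the construct absent from these cells, had signals of 3035 to 3362 in the untreated libraries and 3534 to 3799 in the Y27 libraries. Its groups did not overlap, with a log2 difference of 0.20 ± 0.12 (SE). In RNA from whole cultures, fewer cells of a type and less RNA per cell cannot be told apart.

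No gene of the 14602 tested was called, or 0%, at a Benjamini-Hochberg adjusted p below 0.05 with a 2-fold difference in limma. The smallest adjusted p was 0.975, so no gene named below passed the test in this fit, and its values are given as a description. At an unadjusted p below 0.05 limma had 612 genes, 394 higher with Y27 (2.7%) and 218 lower (1.49%). All signals of the Y27 group lay above those of the untreated group for 793 genes (5.43%) and below them for 580 genes (3.97%). These shares are the background for the gene groups that follow. A difference of at least 2-fold was found for 564 genes, 278 higher and 286 lower, and the median log2 difference of all genes was 0.02, with 52.7% of them above 0. The study's methods name z-score calculations without giving their form. A z test of proportions on summed signal, the form chosen here, leaves out the spread between replicates and called 604 genes, 186 higher and 418 lower. Without library 32 the genes at an unadjusted p below 0.05 numbered 1023 higher and 553 lower, without library 8 they numbered 420 and 381, and without library 24 they numbered 180 and 136. Leaving out library 36 left 136 lower genes.

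**Figure D1:**
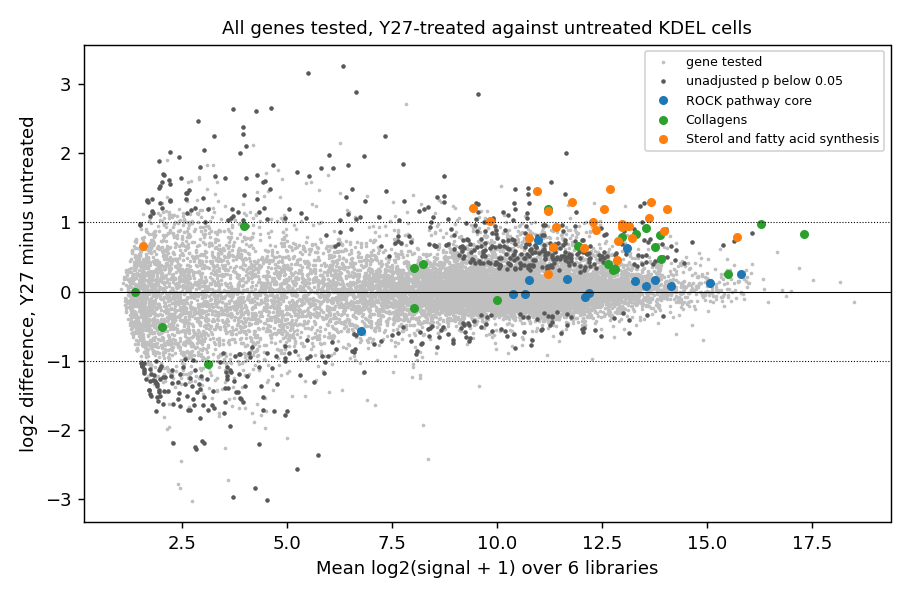
Each point is a gene tested, with mean log2(signal + 1) over the 6 libraries on the x axis and the log2 difference of Y27 minus untreated on the y axis; dotted lines mark 2-fold. The 27 sterol and fatty acid genes (orange) all lie above 0, 17 of the 22 collagens (green) do, and the ROCK pathway genes (blue) scatter around 0.

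With the runs as a block, 661 genes were higher and 333 lower at an unadjusted p below 0.05, none was called, and the smallest adjusted p in limma was 0.0945. The block without library 8 called 46 genes, 33 higher and 13 lower, but this fit has only 2 complete pairs. A fit of all 17 libraries with a group, with the block, chosen after seeing the data, called 31 genes, 24 higher and 7 lower. Besides the 6 libraries compared, that fit held KDEL cells on 1 kPa (3 libraries) and KDEL cells with blebbistatin (2 libraries). It also held cells with the LINC-disrupting construct, on 1 kPa and on the stiff substrate (3 libraries each). Its error estimates therefore drew on those cells too. The 2 fits shared 19 called genes, 17 of them higher with Y27, which is 41.3% of the first set and 61.3% of the second. The 5 libraries of the first fit are also in the second, so their overlap is not independent evidence. Over all genes the block raised those at an unadjusted p below 0.05 to 994, or 6.81% of 14602. In lists described below it gave 4 higher of 25 ROCK kinases and substrates, and 4 higher and 2 lower of 30 SRF targets. Focal adhesion genes had 3 higher of 30, and proteases 6 higher and 1 lower of 20. Nuclear envelope genes had 4 higher and 1 lower of 18. With the block as without it, 1 of 16 myosin II genes, 1 of 29 actin genes and 3 of 19 tubulin genes passed.

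Transcripts of the inhibited kinases differed little. Rock1 had signals of 2609, 3281 and 3367 in untreated libraries 8, 20 and 32 and of 3376, 3315 and 3749.7 in Y27 libraries 12, 24 and 36, a log2 difference of 0.18 ± 0.15 (SE). Rock2 had signals of 11786, 11616 and 11389 without and 12971, 11271 and 12593 with Y27, a log2 difference of 0.08 ± 0.13. The groups overlapped for both genes. The 95% intervals of the differences ran from -0.16 to 0.52 for Rock1 and from -0.23 to 0.39 for Rock2, so neither included a 2-fold change. Without library 8 the Rock1 difference was 0.064.

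Upstream of the kinases, Rhoa, the GTPase that switches ROCK on, had signals of 15861, 17557 and 19387 without and 17277, 19049 and 19263 with Y27. Its groups overlapped and the log2 difference was 0.08 ± 0.16. Rhob, a short-lived GTPase of endosomes, had signals of 5921, 9473 and 6159.7 without and 10363, 15928 and 7874 with Y27. Within each run library 12, 24 or 36 was above its partner, but the groups overlapped (log2 difference 0.64 ± 0.29, unadjusted p = 0.0632 in limma). With the runs as a block its unadjusted p in limma was 0.00484. Rhoc and Rnd3, a GTP-binding protein that restrains ROCK1, had log2 differences of -0.02 and -0.04.

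Downstream, the myosin II heavy chain gene Myh9 had signals of 37525, 64870.5 and 60076 without and 63880.1, 66091 and 59024 with Y27. Only library 8 was low, and the difference was 0.26 ± 0.27, or 0.012 without it. The regulatory light chain genes Myl12a and Myl12b had log2 differences of 0.17 each, and the myosin phosphatase subunit gene Ppp1r12a one of -0.08 ± 0.13. Myl9, a further light chain gene, was at most 5.88 in any library and was not tested.

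Mylk, which encodes myosin light chain kinase, a route to light chain phosphorylation beside ROCK, was the core pathway gene whose groups did not overlap. Its signals were 129, 154 and 111 without and 84.1, 86.2 and 93.1 with Y27, a log2 difference of -0.57 ± 0.25 (unadjusted p = 0.0532 in limma). Limk1, a LIM kinase, had signals of 790.2, 2159 and 2141 without and 2008, 3381 and 2570.1 with Y27. Library 8 was lowest, library 24 highest, and the difference was 0.75 ± 0.40, or 0.27 without library 8. Its unadjusted p in limma was 0.0996, and 0.012 with the runs as a block. Limk2 and cofilin, encoded by Cfl1, differed by -0.04 and 0.12, and Cfl1 by -0.18 without library 8.

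**Figure D2:**
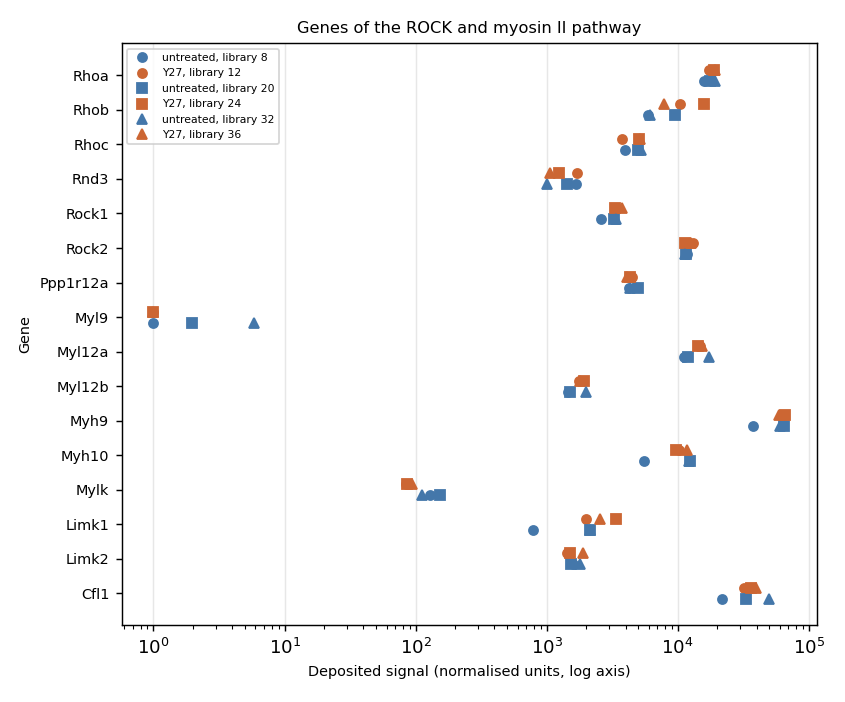
Signal of 16 genes of the ROCK and myosin II pathway in each library, with signal on a log axis; blue marks untreated and orange Y27-treated cells, and libraries of the same run share a marker. The groups overlap for every tested gene except Mylk, and Myl9 lies at the floor.

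Of these 16 core genes 15 were tested and none passed an unadjusted p below 0.05; their median log2 difference was 0.12. The median was 0.012 without library 8 and 0.25 without library 32, so single libraries set its size. In 15 of 19 alternative fits between 1 and 3 of them did.

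None of 25 tested ROCK kinases and substrates passed that level, 1 of 16 myosin II genes and kinases did, and 1 of 29 genes of actin filament turnover. The myosin list's member was Stk10, a kinase of membrane-to-actin linkers, with signals of 4234, 5164 and 4392 without and 6308, 7753 and 5845 with Y27. The actin member was Gsn, encoding the severing protein gelsolin, at 12384, 14919.5 and 15543 without and 22341, 19483 and 18678 with Y27. Both genes had groups that did not overlap and log2 differences of 0.52 ± 0.16 and 0.50 ± 0.16. The shares of these lists are close to the background of all genes.

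Targets of SRF and MRTF lay on both sides, with 21 differences above 0 and 9 below. Of 30 tested, 2 were higher at an unadjusted p below 0.05 and none lower, and the median log2 difference was 0.21. Without library 8 the median was -0.05, with none higher and 4 lower at that level. Csrp1, encoding an actin-bundling LIM protein, had signals of 874, 1905 and 2016 without and 2023, 3059.6 and 2907 with Y27, and the groups did not overlap (difference 0.81 ± 0.33, or 0.42 without library 8). Cnn2 was at 7915, 9243 and 13689 without and 15225, 14600.1 and 13413 with Y27, a difference of 0.52 ± 0.22 with overlapping groups. Vcl, with a CArG box of the same kind, was at 7642, 15489.8 and 12739 without and 12476, 11984 and 11429 with Y27, a difference of 0.06 ± 0.26, or -0.23 without library 8. The smooth muscle genes Acta2 and Tagln had differences of 0.22 ± 0.39 and -0.28 ± 0.49, which became -0.23 and -0.86 without library 8.

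Among 24 tested YAP and TAZ targets 1 was higher and 1 lower, with a median of 0.07. The higher gene was Cyr61, a secreted matrix protein, with signals of 8206, 8672 and 13594 without and 23508, 17238 and 11576 with Y27. The difference was 0.76 ± 0.30, and within runs it was 1.52, 0.99 and -0.23, so the run of libraries 36 and 32 went the other way. Ctgf, its close relative, was at 4849.9, 14515 and 14494 without and 12496, 15488 and 18912 with Y27, with a difference of 0.61 ± 0.42, or 0.087 without library 8. The lower gene, Nt5e, was at most 6.68 in any library, a level of a few read pairs. None of 30 focal adhesion adaptors and kinases passed that level, and their median was 0.03. Of 19 integrins 2 were higher, Itga4 at 10.8 or less in every library and Itgb4, a laminin receptor subunit, at 133, 427 and 234 without and 301, 889 and 867 with Y27.

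Collagen genes were mostly at higher signals with Y27, 17 of 22 with a difference above 0. Of these 22 tested, 6 were higher and none lower at an unadjusted p below 0.05, and the groups did not overlap for 7, all higher. The median log2 difference was 0.44 and the lowest -1.05. Within each of the 3 runs 12 of the 22 (54.5%) were higher and 2 (9.09%) lower, against 15.3% of all genes higher and 12.4% lower. Col1a1, a chain of type I collagen, had signals of 49147, 44812 and 83218 without and 100927, 118122 and 117547 with Y27. Its partner chain Col1a2 was at 126782, 109725 and 130481 without and 231471, 219388 and 204495 with Y27. Every Y27 library was above every untreated library in both, with log2 differences of 0.98 ± 0.30 and 0.84 ± 0.29.

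Col11a1, a chain of the minor fibrillar type XI collagen, was at 1598, 1395 and 1689 without and 5173, 2786 and 3169 with Y27, a difference of 1.20 ± 0.24. The type VI genes Col6a1 and Col6a2, whose product forms beaded microfibrils, differed by 0.82 ± 0.27 and 0.84 ± 0.26, and Col16a1 by 0.92 ± 0.31, or 0.59 without library 8. Unlike these, the basement membrane genes Col4a1 and Col4a2 had overlapping groups. Without library 8 the collagen median was 0.34, with 8 genes higher and none lower at an unadjusted p below 0.05, and with the block 9 were higher and none lower. Within runs the collagen median was 0.90, 0.20 and 0.48.

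Other matrix genes showed a smaller median difference than the collagens in the pooled fit, but not in every run. Of 32 tested glycoproteins and proteoglycans 5 were higher and none lower, with a median of 0.25. Within each run 14 (43.8%) were higher and 3 (9.38%) lower. Dcn, encoding the small proteoglycan decorin, had signals of 1147, 944 and 517 without and 4881, 1717 and 1458 with Y27. Sparc, a collagen-binding protein, was at 29411, 30737 and 42516 without and 52546, 57115 and 52546 with Y27, and Lox, a collagen cross-linking enzyme, at 52393, 37730.4 and 32287 without and 83907, 64203 and 53994 with Y27. The groups did not overlap for these 3 genes, with log2 differences of 1.48 ± 0.48, 0.68 ± 0.22 and 0.73 ± 0.27. Without library 8, 7 of the 32 were higher and 4 lower, and with the block 10 were higher and none lower. Their median was 0.28 without library 8, and within runs 0.42, 0.31 and 0.26. In the run of libraries 24 and 20 it was above the collagen median of 0.20. Fn1, encoding fibronectin, with which the gels were coated, differed by 0.14 ± 0.49.

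Of 20 proteases and inhibitors 3 were higher and none lower at an unadjusted p below 0.05. Adamts2, which cleaves the amino-terminal propeptide of type I procollagen, had signals of 3181, 3285 and 3404 without and 6564, 5529 and 4622 with Y27. Adamts1, an aggrecan-cleaving protease, was at 1626, 1956 and 2246 without and 9578, 4549.7 and 3090.1 with Y27, and the gelatinase gene Mmp2 at 10718, 17034 and 16292 without and 19428, 26727 and 22837 with Y27. The groups did not overlap for these 3 genes, with differences of 0.75 ± 0.16, 1.41 ± 0.38 and 0.67 ± 0.23. Adamts1 differed by 2.56, 1.22 and 0.46 within the 3 runs, the widest range of the 3.

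Genes of the TGF-beta pathway, which drives collagen synthesis in fibroblasts, were split. Of 22 tested, 1 was higher and 2 lower, with a median of 0.07. Without library 8, 1 was higher and 4 lower, and with the block 3 were higher and 3 lower. Smad3, which carries the receptor signal to the nucleus, had signals of 2614, 2591 and 1819 without and 1416, 1386 and 1442 with Y27. Skil, encoding the inducible feedback inhibitor SnoN, was at 2212, 3159 and 1854 without and 1217, 1351 and 1601 with Y27. The groups did not overlap for either gene, with log2 differences of -0.71 ± 0.17 and -0.77 ± 0.22. Id1, a target of the related BMP branch, was at 3359, 3497 and 3948 without and 5491, 6023 and 5272 with Y27, a difference of 0.64 ± 0.13.

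Sterol and fatty acid synthesis genes had a difference above 0 in all 27 cases, with a median of 0.94, but library 8 set the size. Of the 27, 5 were higher and none lower at an unadjusted p below 0.05, and 15 had groups that did not overlap, all higher. Mvd, an enzyme of the mevalonate pathway, had signals of 431, 2008 and 1926 without and 2833, 3408 and 3608 with Y27, a log2 difference of 1.46 ± 0.55. Library 8 was far below the others, and without it the Mvd difference was 0.73.

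Without library 8 the sterol median was 0.29, with 5 genes higher and none lower at an unadjusted p below 0.05, and with the block 10 were higher and none lower. Within runs the median was 2.27 for library 12 minus 8, 0.18 for 24 minus 20 and 0.32 for 36 minus 32. Of the 27 genes 22 (81.5%) were higher within each run, against the 15.3% of all genes, and none was lower within each run. Dhcr7, which makes cholesterol in the last step of a branch of the pathway, showed this pattern: signals of 344, 855 and 878 without and 1264, 1321 and 1308 with Y27. Mvk, mevalonate kinase, was at 807, 1826 and 2713 without and 3330.3, 3737 and 3681 with Y27. Their differences were 1.03 ± 0.35 and 1.17 ± 0.39, or 0.58 and 0.68 without library 8.

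**Figure D3:**
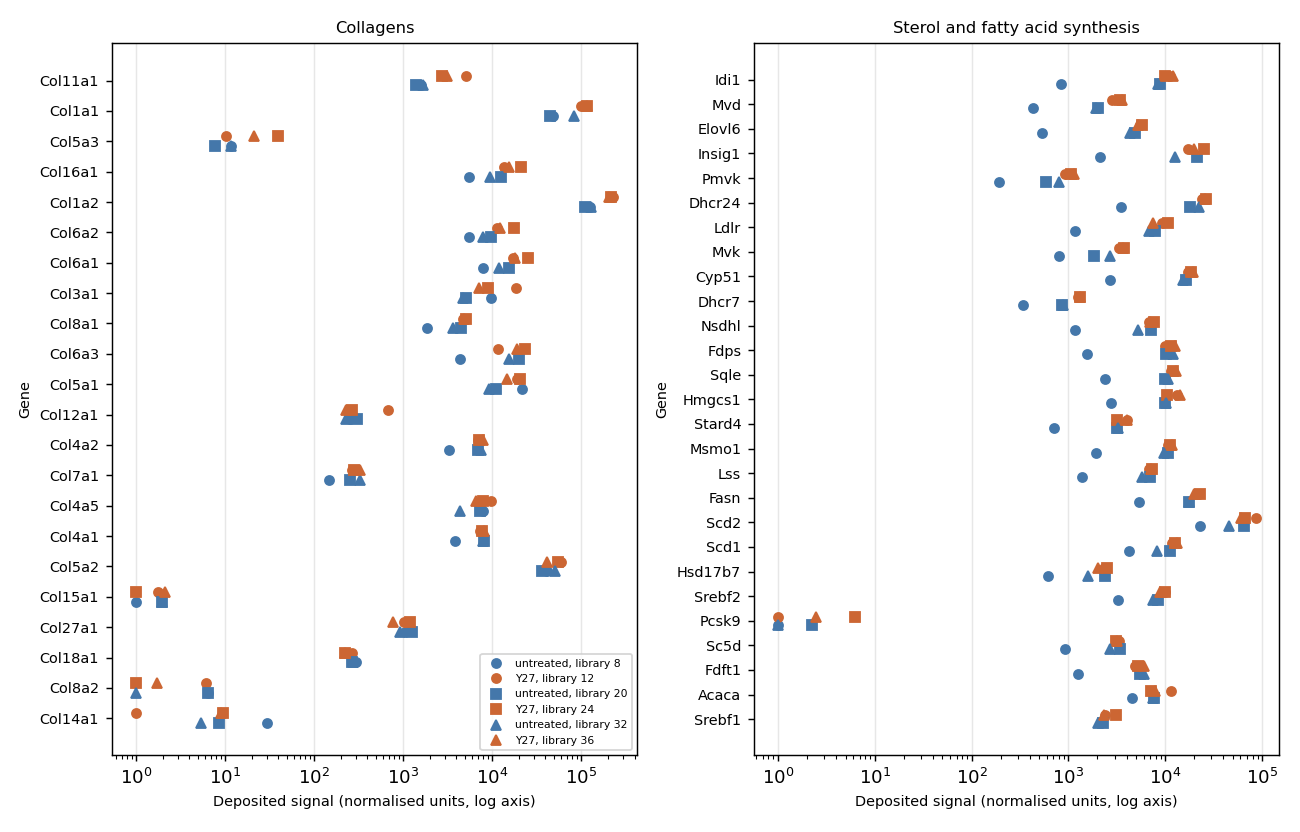
Signal of 22 collagen genes (left) and 27 sterol and fatty acid genes (right) in each library on a log axis, ordered by log2 difference; blue marks untreated and orange Y27-treated cells. In the sterol panel library 8 (blue circles) lies apart to the left of both other untreated libraries in most genes, while in Col1a1, Col1a2 and Col11a1 it lies among them.

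Mitosis and replication genes depended on library 8. All 42 mitosis genes had a difference above 0, with a median of 0.84, and none passed an unadjusted p below 0.05. Without library 8 the median was -0.09 and none passed. Without library 32 it was 1.40, and 12 of 42 were higher. Of 42 replication genes none passed and the median was 0.53, or -0.06 without library 8. Within runs the mitosis median was 2.51, 0.17 and -0.27, so the comparison gave no direction for these genes outside the run of library 8. Among 19 cyclin, CDK inhibitor and growth arrest genes only Btg1, an antiproliferative gene, passed that level. Its signals were 6986, 4700.3 and 4194 without and 3754, 3341 and 3714 with Y27, a difference of -0.52, or -0.30 without library 8.

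Immediate-early genes, which respond within minutes to growth factors and stress, were at higher signals mainly in libraries 12 and 24. Of 22 tested, 7 were higher and none lower at an unadjusted p below 0.05, with a median of 0.72. Dusp1, a phosphatase of MAP kinases, had signals of 4995, 5946 and 8033 without and 14218, 11968 and 8549.8 with Y27. Nr4a1, an orphan nuclear receptor, was at 455, 1616 and 1570.5 without and 3406, 3132 and 2049 with Y27. Both had groups that did not overlap, with log2 differences of 0.87 ± 0.25 and 1.41 ± 0.48. The Nr4a1 difference was 0.81 without library 8. Zfp36, whose promoter is shown above, was at 792, 830.2 and 1152 without and 3833, 2391 and 985 with Y27. Library 36 lay among the untreated libraries in Zfp36, and the difference was 1.19 ± 0.45.

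Fos had signals of 361, 449 and 1586 without and 5834, 1560.4 and 687 with Y27, a difference of 1.53 ± 0.82. Within runs the median of the immediate-early genes was 1.68, 0.84 and -0.13, so the run of libraries 36 and 32 gave no difference in the median. Of the 22 genes 6 (27.3%) were higher within each run. Without library 8 the median was 0.55, with 5 genes higher and none lower at an unadjusted p below 0.05. With the block 9 were higher and none lower, and with the block without library 8 the median was 0.28, with 7 higher and 2 lower.

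**Figure D4:**
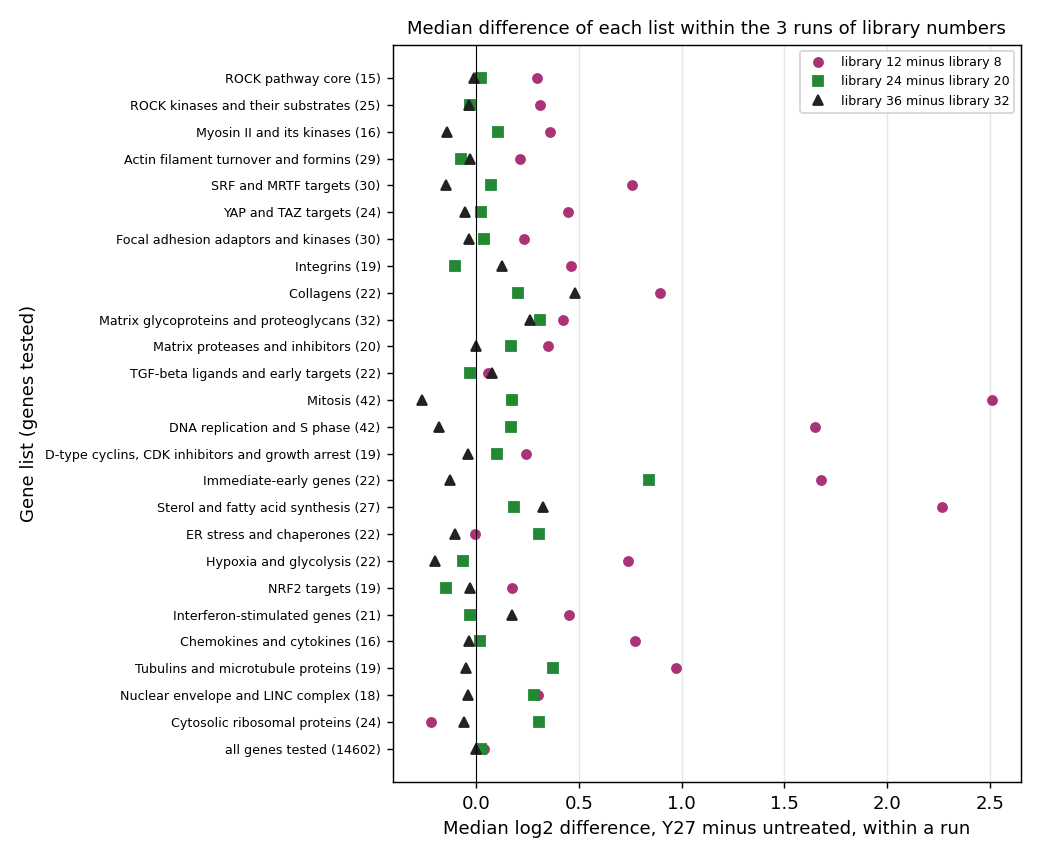
Median log2 difference of Y27 minus untreated for each gene list within the 3 runs of library numbers, with the number of genes tested in parentheses; circles show library 12 minus 8, squares 24 minus 20 and triangles 36 minus 32. Collagens, matrix glycoproteins and sterol genes lie above 0 in all 3 runs, while mitosis genes are at 2.51 in the run of library 8 and at 0.17 and -0.27 in the others.

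Some tubulin genes were at higher signals with Y27. Of 19 tubulin and microtubule genes 3 were higher and none lower at an unadjusted p below 0.05, with a median of 0.39, or 0.06 without library 8. Tubb2a had signals of 1661, 3139 and 3119 without and 6621, 5955 and 4499 with Y27. Tuba1a was at 6319, 9487 and 11748 without and 16431, 14480.2 and 14147 with Y27. Tubb2b was at 47.6, 106 and 182 without and 296, 251 and 265 with Y27. The groups did not overlap in these 3 genes, with differences of 1.15 ± 0.28, 0.75 ± 0.23 and 1.46 ± 0.46. The Tubb2b difference was 0.95 without library 8. Tubb2a and Tubb2b are near-identical copies whose reads could be split between them.

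The remaining lists gave few genes at an unadjusted p below 0.05. There were none among 22 ER stress genes, 16 chemokines and cytokines and 24 ribosomal protein genes. There was 1 higher gene each among 22 hypoxia and glycolysis genes (Adm, encoding the vasodilator peptide adrenomedullin) and 18 nuclear envelope genes (Tmem43, an inner nuclear membrane protein). Among 19 NRF2 targets Cbr3, a carbonyl reductase, was higher and Txnrd1, thioredoxin reductase, lower. Among 21 interferon-stimulated genes Usp18 was lower, at 19.8, 20.9 and 12 without and 4.39, 9.32 and 7.45 with Y27. The medians of these lists lay between -0.0033 and 0.21.

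Fibroblast markers were at high signals in every library, with Vim, encoding vimentin, at 43506 to 144826. Of the 8 markers 2 were higher at an unadjusted p below 0.05, the collagens Col1a1 and Col1a2. Of 30 markers of macrophages, endothelium, epithelium, skeletal muscle, adipocytes and neurons 17 were tested, 7 were at the lowest value in all 6 libraries, and 2, Tek and Krt14, were higher at that level. The summed signal of the 5 endothelial markers was 378 to 729.6 without and 1069.5 to 3979.6 with Y27. Tek was most of it in the Y27 libraries (3928 of 3979.6 in library 12), but only 125 of 378 in library 32. Kdr and Tie1 were at most 4.44 and 7.87 in any library, so the remainder came mainly from Pecam1 and Cdh5. Of the 5 endothelial markers 3 had a log2 difference above 0 and 2 below, with a median of 0.17. Tie1 differed by -0.89, so the rise of the sum does not describe the other members. The 5 epithelial markers summed to 232 to 346 without and 371 to 1168 with Y27, and Epcam and Krt18 were at the lowest value throughout. Krt14 was 656 of 865 in library 24 and 872 of 1168 in library 36. Krt8, tested beside Cdh1 and Krt14, went the other way, with a log2 difference of -0.325. Cdh1, of the same list, was at 311, 149 and 88 without and 293, 206 and 290 with Y27, with overlapping groups. The other 4 lists summed to at most 513 in any library. Tek, the angiopoietin receptor gene, had signals of 682, 244 and 125 without and 3928, 2589 and 779 with Y27. Its groups did not overlap, with a log2 difference of 2.85 ± 0.74. Krt14, a basal keratin gene, was at 32, 80.5 and 149 without and 74.4, 656 and 872 with Y27, with overlapping groups.

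The genes that ranked highest by unadjusted p were taken among those above the median signal with groups that did not overlap. On the higher side Pdgfrl, a gene for a receptor-like protein related to PDGF receptors (chr8:40926212-40990785), had signals of 775, 1091 and 794 without and 1934, 2563 and 1931 with Y27. Its log2 difference was 1.28 ± 0.19 (unadjusted p = 0.000222 in limma), and 1.32, 1.23 and 1.28 within the 3 runs. Prelp, a leucine-rich proteoglycan that anchors basement membranes (chr1:133910304-133921414), was at 2086, 2136 and 905 without and 5892, 8701 and 5123 with Y27. Every Y27 library was more than 2 times any untreated library, and the difference was 2.01 ± 0.36.

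Ly6a, encoding the surface antigen Sca-1 (chr15:74994877-74998031), was at 6636, 9819 and 6345 without and 16926, 22229 and 15651 with Y27. Its neighbor in the same family, Ly6c1 (chr15:75044018-75048830), was at 669, 1288 and 1228 without and 2426, 3466 and 2867 with Y27. The log2 differences were 1.28 ± 0.22 and 1.502 ± 0.27, and reads of this family could be split between copies. The other leading higher genes had differences between 0.82 and 1.20. They were Asic1, an acid-sensing ion channel, Nhsl1, Pmp22, a myelin protein also made by fibroblasts, Hid1, Prkcdbp, a component of caveolae, and Col11a1.

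On the lower side the leading genes differed by less, between -0.51 and -0.77. Adam22, a membrane protein of the disintegrin family (chr5:8072352-8368160), had signals of 1644, 1474 and 1388 without and 900.5, 966 and 1003 with Y27. Plin2, a coat protein of lipid droplets (chr4:86648386-86670060), was at 9251, 12089.9 and 12265 without and 6304, 7473 and 8317 with Y27. Prkg2, a cGMP-dependent kinase (chr5:98929773-99037351), was at 7647, 8553 and 5563 without and 5049, 4091 and 4633 with Y27. The groups did not overlap in any of them, as the rule for naming requires. Smad3 and Skil, described above, also belonged to this side, and Tnfrsf22, Helz2, Wdr92, Rps6ka2 and Hivep2 completed the 10.

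**Figure D5:**
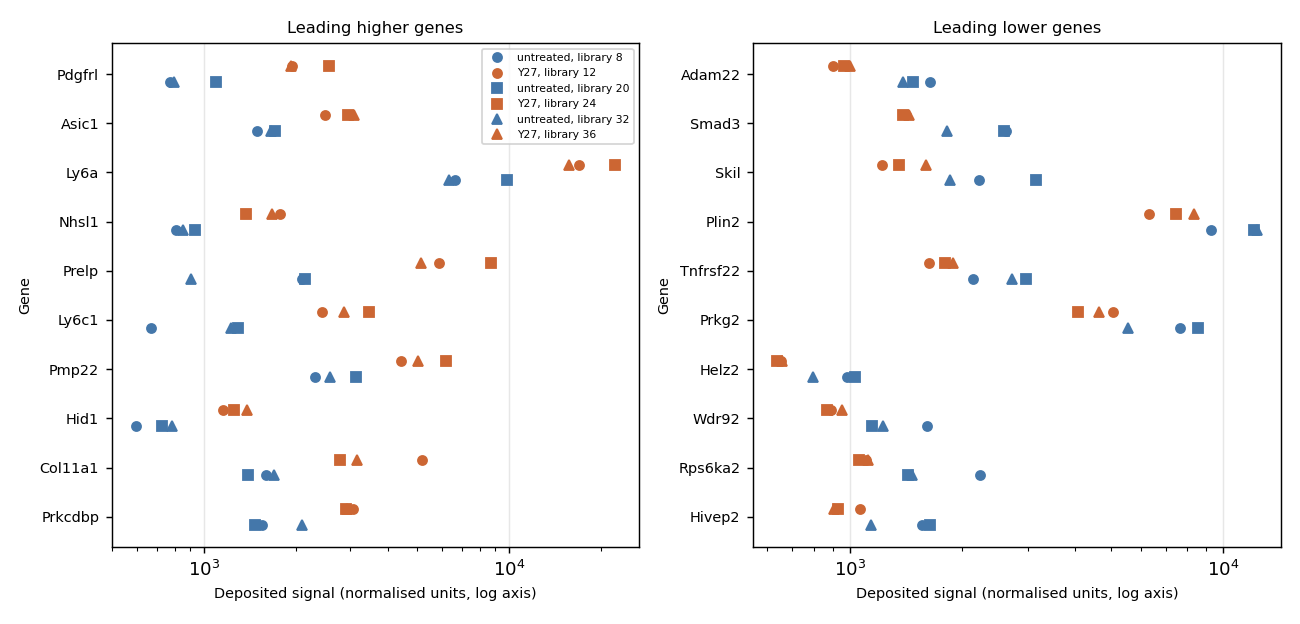
Signal of the 10 leading higher genes (left) and the 10 leading lower genes (right) in each library on a log axis; blue marks untreated and orange Y27-treated cells. The rule for naming required that the groups do not overlap, and the Y27 signals of Prelp, from 5123 to 8701, lie farthest from the untreated ones.

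The 19 genes called in both blocked fits, named after their values were seen, included Prelp, Pdgfrl, Ly6a, Ly6c1, Dcn and Tek. Tek had adjusted p-values of 0.000182 without library 8 and 0.000136 with all groups in limma, and Prelp of 0.000182 and 0.00435. Upk3b, a uroplakin, was at 10.8, 7.87 and 31.4 without and 117, 168 and 119 with Y27, and Tspan15, a tetraspanin that guides the protease ADAM10, at 243, 223 and 329 without and 588, 783 and 694 with Y27. The 2 lower genes were the placental hormone genes Prl2c2 and Prl2c3, known as proliferins. Prl2c2 was at 134, 4639 and 699 without and 41.3, 568 and 119 with Y27. Its signal in each Y27 library was below that of its run partner, though the groups overlapped widely. These 2 genes are near-identical copies. Of the 19 genes 7 had a mean above that of the median gene.

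The levels in the other groups of the series are given side by side, since those groups share the untreated cells as their control. Prelp had a mean of 1709 ± 697 (SD, n = 3) without inhibitor, 6572 ± 1883 (n = 3) with Y27 and 4238 ± 456 (n = 2) with blebbistatin, which blocks the myosin II motor itself. It was at 2140.3 ± 1048 (n = 3) in KDEL cells on 1 kPa. Blebbistatin was given at 10 μM for 48 hr. Col1a1 had a mean of 59059 ± 21035 without inhibitor, 112198 ± 9766 with Y27, 88452 ± 17000 with blebbistatin and 78225 ± 18938 on 1 kPa, with the same n. The Col1a1 signals with blebbistatin (76431 to 100472) overlapped those on 1 kPa (58894 to 96743) and lay just below those with Y27 (100927 to 118122). Signals with blebbistatin and on 1 kPa both also overlapped the untreated ones (44812 to 83218). The blebbistatin libraries share the runs of libraries 8 and 20 and not that of library 32, the highest untreated library. Smad3 had a mean of 2341 ± 453 without inhibitor, 1415 ± 27.9 with Y27, 1844 ± 323 with blebbistatin and 2196 ± 324 on 1 kPa.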

How the data were processed

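Polyadenylated RNA was sequenced as paired-end reads. The authors aligned them with TopHat and discarded poor alignments, unpaired mates and duplicates. They deposited a normalized signal per gene from AvadisNGS, made comparable between libraries with trimmed means of M-values, in which the lowest value is 1. Use of strand is not given in the sources used here, so overlapping genes on opposite strands may share reads. The methods name mm9, but 99.9% of 20143 matched genes in the table overlap their GRCm38.p6 position and 12.1% of 20541 their NCBIM37 position, so coordinates are taken as GRCm38.

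From the deposited signal, log2(value + 1) was tested with limma 3.58.1 in R 4.3.3, two-sided, with a variance trend. Fold differences are on this scale, which understates those of low genes, and errors after ± are standard errors of log2 differences unless marked SD. On simulated data the test recovered 10% of 200 changed genes at a log2 change of 1, 68.5% at 2 and 85% at 3 among 14602. Recovery required an adjusted p below 0.05 and an estimate of at least 2-fold, so at a change of 1 the fold limit itself removed genes. The simulated noise was independent between genes and libraries, without a shared shift of a library or run. An exact permutation of 3 against 3 libraries cannot go below 0.1. The signals are not whole reads, so no test on read counts was used. Libraries of the same run correlated in their deviations from group means (r = 0.376, 0.248 and 0.537 over 7301 genes; other pairs -0.50 to 0.054), so a fit with the runs as a block and differences within runs are given beside the reported fit, which has no block.

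Comparisons, members and gene lists were chosen with earlier results of these data known. Named genes were the 10 per direction with the smallest p, a mean above the median gene and groups that do not overlap, the core pathway genes, the 2 members of each list with the smallest p, and Sun1. Further list members were picked once their values were known. The library labelled both as Y27 and as blebbistatin was left out. Spike-ins and microRNA libraries were not analysed here. Diaph1, Diaph2, Diaph3, Gas5 and Mx2 were not analysed here. A gene list and a member of another are not reported here.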

Additional observations from a re-analysis of the deposited data

How the results depend on the processing

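As in the reported fit, 0 genes were called under 18 of 22 alternatives. Called genes numbered 604 by the z test of proportions, 1 without the filter on low values (Ucma), 46 with the block without library 8 and 31 with all groups and the block. Genes at an unadjusted p below 0.05 numbered 661 higher and 333 lower with the replicate block on runs, 633 and 512 with the block without library 8, and 1128 and 818 with all groups and the block. Lower genes numbered 138 with a mean signal of at least 10, 355 with all groups and 410 with array weights. With 1 library left out, higher genes ranged from 180 to 1023 and lower genes from 136 to 553. Core pathway genes at that level numbered 1 with no filter, a mean of at least 10, the filter over all libraries, a pseudocount of 8, quantile normalization, all groups, no variance trend, the robust prior or array weights, 2 with either block and 3 with all groups and the block, and ranged from 0 to 3 with 1 library left out.

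List medians moved by more than the spread between libraries in few cases, but this spread included library 8. It was 1.11 for the mitosis genes, whose median was -0.09 without library 8 and 1.40 without library 32. For the sterol genes it was 0.79 (medians 0.29 and 1.29) and for the SRF targets 0.36 (-0.05 and 0.33), so such shifts did not count as moved. Lists that moved by more than their spread follow. The myosin II genes ranged from 0.015 to 0.33, the collagens from 0.34 to 0.59, the tubulins from 0.058 to 0.74 and the fibroblast markers from 0.22 to 0.77 when 1 library was left out. The collagens gave 0.56 with a mean of at least 10 and 0.29 with array weights, the proteases 0.29 and the epithelial markers 1.47 with a mean of at least 10. The tubulins gave 0.091 and the fibroblast markers 0.18 with the block without library 8. Of the named genes 13 changed sign in at least 1 alternative, among them Rhoc, Rnd3, Rock2, Myh10, Limk2 and Cfl1. The causes were not tested.

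On simulated data most 2-fold changes were not called with 3 libraries a group, where a call also required an estimate of at least 2-fold. Differences among signals of a few units rest on a few read pairs, and detection at that level was not tested.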
